A study of Homo sapiens with 4 samples.

Results

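HCT116 cells transfected with a plasmid were set against HCT116 cells transfected with a single-stranded RNA. HCT116 is an established human colon cancer cell line. The plasmid side held 2 arrays, 1 of cells given the empty expression plasmid pcDNA3.1 (vector) and 1 of cells given pcDNA3.1 with the primary transcript of the microRNA miR-663a (pri-miR663a). The RNA side held 2 arrays, 1 of cells given a scrambled RNA and 1 of cells given an inhibitor of miR-663a. These are all 4 arrays of the series, which was built to look for miR-663a targets by setting pri-miR663a against vector and inhibitor against scrambled RNA. All 4 groups were grown in RPMI medium with serum, per the labels, and an untransfected group and a time after transfection are not given there. The titles of both RNA arrays contradict their other labels about which held the inhibitor, and the plasmid minus RNA difference is the same either way because both arrays stand on the RNA side.

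The members of each side were taken from the source labels, with no measured value used. The quantity described is the mean log2 signal of the 2 plasmid arrays minus the mean log2 signal of the 2 RNA arrays, gene by gene. A gene is called separated when both plasmid arrays lay above, or both below, both RNA arrays. The arrays of a side carried different cargo, so the spread within a side includes any effect of miR-663a or its inhibitor. With 2 arrays against 2, the smallest two-sided p of an exact permutation test is 0.3333, so single genes were tested only in the limma fit over all probe sets. Whatever else differed in handling between the plasmid and the RNA transfections runs with the delivery, and the effects of both cannot be told apart.

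Transfected plasmid DNA is double-stranded DNA of bacterial origin that reaches the cytosol before it is transcribed in the nucleus. Cells carry sensors for cytosolic DNA and for RNA, which act through interferon regulatory factors and through NF-kB, and stress kinases act through AP-1 factors such as JUN and ATF3. Chemokine genes such as CXCL8, CXCL1 and CCL20 are textbook targets of NF-kB in epithelial cells.

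The sequences that bear on the comparison are the cargo and the promoters of the leading chemokine genes. The mature microRNA that the pri-miR663a plasmid encodes is 22 bases long, lies on the minus strand at chr20:26208243-26208264 of GRCh38.p14 in RefSeq, and is shown with its seed, bases 2 to 8, in capitals.
hsa-miR-663a: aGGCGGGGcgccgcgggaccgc

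The 3 promoter windows below run from 250 bases before to 50 bases after the RefSeq start of each gene, on the plus strand of GRCh38.p14. They lie at chr4:73740319-73740618 for CXCL8, chr2:227813592-227813891 for CCL20 and chr4:73869143-73869442 for CXCL1. Capitals mark matches on either strand to the kappaB-like motif GGNNNTTCC, the AP-1 motif TGANTCA and the ATF/CRE-like motif TGACNTCA.
CXCL8: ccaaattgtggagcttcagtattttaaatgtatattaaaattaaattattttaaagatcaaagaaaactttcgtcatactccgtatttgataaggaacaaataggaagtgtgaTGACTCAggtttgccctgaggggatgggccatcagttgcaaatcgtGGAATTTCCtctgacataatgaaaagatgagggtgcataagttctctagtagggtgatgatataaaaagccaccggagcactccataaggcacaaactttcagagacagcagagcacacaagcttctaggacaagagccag
CCL20: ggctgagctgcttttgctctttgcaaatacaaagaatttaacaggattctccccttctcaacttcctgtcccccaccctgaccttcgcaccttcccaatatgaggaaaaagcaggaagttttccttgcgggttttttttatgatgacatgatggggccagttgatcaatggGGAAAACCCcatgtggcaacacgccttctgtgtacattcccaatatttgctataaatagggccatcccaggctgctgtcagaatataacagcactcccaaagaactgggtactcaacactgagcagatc
CXCL1: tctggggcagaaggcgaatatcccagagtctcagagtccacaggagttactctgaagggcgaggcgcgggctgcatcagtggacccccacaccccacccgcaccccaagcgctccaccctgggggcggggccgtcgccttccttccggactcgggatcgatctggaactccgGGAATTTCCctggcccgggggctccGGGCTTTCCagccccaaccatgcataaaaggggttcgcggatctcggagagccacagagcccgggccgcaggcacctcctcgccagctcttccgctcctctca
The CXCL8 window held the AP-1 match TGACTCA, 137 to 131 bases before the start, and the kappaB-like match GGAATTTCC, 91 to 83 bases before it. A kappaB-like match on the minus strand, written GGAAAACCC on the plus strand, lay 79 to 71 bases before the CCL20 start. CXCL1 had the kappaB-like matches GGAATTTCC at 78 to 70 bases and GGGCTTTCC at 53 to 45 bases before its start. The ATF/CRE-like motif was in none of the 3 windows. Over 27305 RefSeq promoters of the same length, 20.1% held the kappaB-like motif, 7.76% the AP-1 motif and 7.97% the ATF/CRE-like motif. Letters that match a motif describe these windows and show no binding.

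The value table held log2 signals of 16381 probe sets, of which 8786 genes had a level, each read from its brightest probe set. A gene was counted when its mean over the 4 arrays lay above 4.16 log2, the median of all values, which left 5613 genes. Median signals of the arrays were 4.12 and 4.19 log2 with plasmid, against 4.16 and 4.16 log2 with single-stranded RNA. Over the whole profile the RNA arrays were the nearest pair, while the plasmid arrays did not group together. The SD of the difference between arrays, over the brighter probe sets, was 0.251 between the plasmid arrays and 0.209 between the RNA arrays. It was 0.247 between vector and scrambled RNA, 0.242 between vector and inhibitor, 0.243 between pri-miR663a and scrambled RNA, and 0.300 between pri-miR663a and inhibitor. Vector therefore lay nearer to each RNA array than to pri-miR663a. Colon epithelial markers fitted the label, with 8 of 9 measured members above the median on every array and summed levels of 14.45 and 14.39 log2 with plasmid, against 14.44 and 14.40 log2 with RNA. The leukocyte markers summed to 7.20 and 7.55 log2 with plasmid, against 7.47 and 7.44 log2 with RNA. Of 8 measured members, PTPRC, LYZ and TYROBP had means below the median and 5 were counted, among them CD79A, LAPTM5, CD68 and CD3E. Above the median were 4 with vector and 5 on each other array. The neural marker TUBB3 and the fibroblast marker COL1A1 also lay above it on every array, so markers of other tissues were not all dim.

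A small set of genes stood apart by delivery, led by chemokine genes, and most of the larger differences were higher with plasmid. Separated by any amount were 1122 genes higher with plasmid, 20% of those counted, and 1090 lower, 19.4%. At 1.5-fold or more, 51 separated genes were higher with plasmid, 0.909% of those counted, and 12 were lower, 0.214%. At 2-fold or more, 5 genes were higher, 0.0891%, and 0 were lower, 0%: CXCL8, CCL20, UPP1, ETS1 and CXCL1. In 3 of the 51 higher genes, CCL20, DYNLT2 and DNAI4, the RNA mean lay below the 4.16 median. Without the vector array the balance turned, with 66 genes higher and 78 lower, while without pri-miR663a it was 92 and 10, and without scrambled RNA 99 and 36. Just inside the 1.5-fold threshold lay SCYL3 at 0.588 log2 and ITGA2 at -0.587, and just outside it ELK4 at 0.585 and ARID2 at -0.580. In limma's fit with Benjamini-Hochberg adjustment over all 16381 probe sets, 3 probe sets rose with plasmid at an adjusted p under 0.05, which is 0.0183%, and 0 fell. At an unadjusted p under 0.05 the same fit had 663 higher and 475 lower. None of the 3 calls was made when any 1 array was left out (smallest adjusted p from 0.586 to 0.972), and 0 were made with a term for the cargo in the model (smallest adjusted p 0.226) or without the intensity trend (0.0505). RNA came from whole cultures, so more cells responding and more RNA per responding cell cannot be told apart.

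**Figure D1:**
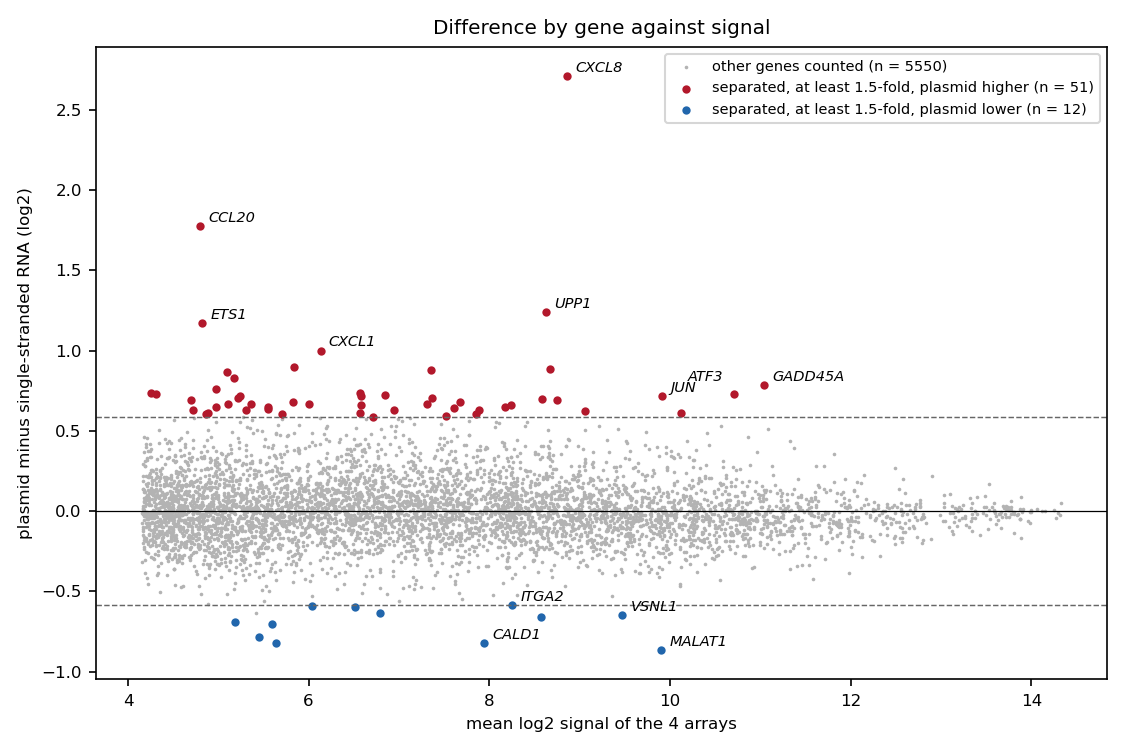
Each point is 1 of the 5613 genes counted, by its mean log2 signal over the 4 arrays (x axis) and its plasmid minus single-stranded RNA difference in log2 (y axis). Dashed lines mark 1.5-fold. The 51 red genes are separated and higher with plasmid and the 12 blue genes separated and lower, and CXCL8 lies farthest from 0 at 2.71.

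CXCL8, which encodes the neutrophil chemoattractant interleukin-8, had 10.13 log2 with vector and 10.31 with pri-miR663a, against 7.31 with scrambled RNA and 7.70 with inhibitor. Both plasmid arrays lay above both RNA arrays, with 2.43 log2 between the nearest arrays of the sides. CXCL8 rose 6.56-fold with plasmid, a difference of 2.71 ± 0.15 log2 (limma SE, 2 arrays a side, adjusted p = 0.00768). A further CXCL8 probe set had a difference of 2.96 log2 in size in the authors' deposited table, whose sign that table does not give.

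CCL20 encodes the ligand of the chemokine receptor CCR6. Its signals were 5.60 and 5.77 log2 with vector and pri-miR663a, against 3.93 and 3.89 log2 with scrambled RNA and inhibitor. The RNA arrays were below the 4.16 median and the plasmid arrays above it, without overlap, so the gene was counted through its plasmid side. CCL20 rose by 1.78 ± 0.14 log2 in limma's fit (SE, adjusted p = 0.0365). Set against the 4.16 median in place of the dim RNA values, the plasmid mean of CCL20 was 2.88-fold higher. That median is the cut for counting genes, so the value is not a lower bound. Adding 64 to the linear signals before the logarithm, which shrinks differences of dim probe sets, left 0.55 log2.

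UPP1 encodes uridine phosphorylase 1, which splits uridine into uracil and ribose 1-phosphate. It had 9.28 and 9.21 log2 with vector and pri-miR663a, against 8.07 and 7.94 log2 with scrambled RNA and inhibitor. The plasmid arrays were both higher, and arrays of a side differed by at most 0.12 log2. UPP1 rose 2.36-fold, by 1.24 log2 (limma SE 0.10, adjusted p = 0.0365).

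The other separated genes past 2-fold missed limma's threshold. ETS1, a transcription factor of the ETS family, had 5.37 and 5.43 log2 with plasmid, against 4.14 and 4.32 log2 with RNA, which is 2.25-fold higher (limma, adjusted p = 0.214). The scrambled RNA value of ETS1 lay just below the median of all values, and the inhibitor value not far above it. CXCL1, a neutrophil chemokine that binds CXCR2, had 6.66 and 6.60 log2 with plasmid, against 5.58 and 5.68 log2 with RNA, which is 2.001-fold higher (limma, adjusted p = 0.214). With 64 added to the linear signals, as for CCL20, the differences of ETS1 and CXCL1 were 0.36 and 0.52 log2, both under 1.5-fold. In the authors' deposited table another ETS1 probe set was separated with a size of 0.47 log2 and a gap of 0.01 log2 between the sides, and one more was not separated, at 0.14 log2. The sign of both is unknown. On the probe sets of the value table, the gap between the nearest arrays of the sides, 1.05 log2 for ETS1 and 0.92 log2 for CXCL1, was larger than either difference within a side.

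Among the next 7 genes by size, GADD45A was the brightest. GADD45A, a stress and DNA damage gene, had 11.45 and 11.43 log2 with plasmid, against 10.52 and 10.78 log2 with RNA, or 1.73-fold higher (limma, adjusted p = 0.214). PRKAB1, a regulatory subunit of AMP-activated kinase, had 7.80 and 7.78 log2 with plasmid, against 7.09 and 6.73 log2 with RNA. Its other probe set had a difference of 0.47 log2 in the same direction. For ZMYM5, LOC441461, GIGYF2, NRG1 and WDR20 the differences were 0.90, 0.88, 0.87, 0.83 and 0.76 log2. In LOC441461 the plasmid arrays lay farther from each other than the sides did, since it had 8.56 with vector and 9.66 with pri-miR663a, against 8.33 with scrambled RNA and 8.13 with inhibitor. Other probe sets of NRG1 (0.01) and LOC441461 (0.002) lay near 0 in log2 at mean signals not far above the median, and that of GIGYF2 was below the median, so those calls rest on 1 probe set each.

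The other 39 higher genes differed by 0.59 to 0.74 log2. Some of them were as steady within a side as the genes above, and were chosen for that after their values were seen. NFIL3, a bZIP repressor, had 10.45 and 10.42 log2 with plasmid, against 9.83 and 9.81 log2 with RNA (limma, adjusted p = 0.214). PEA15, an adaptor that binds ERK, had 9.16 and 9.03 log2 with plasmid, against 8.40 and 8.41 log2 with RNA, and its other probe set had 0.61 log2. In both genes the gap between the nearest arrays of the sides, 0.59 log2 for NFIL3 and 0.61 log2 for PEA15, was larger than either difference within a side. CPA4, a carboxypeptidase, had 7.16 and 7.25 log2 with plasmid, against 6.50 and 6.47 log2 with RNA.

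**Figure D2:**
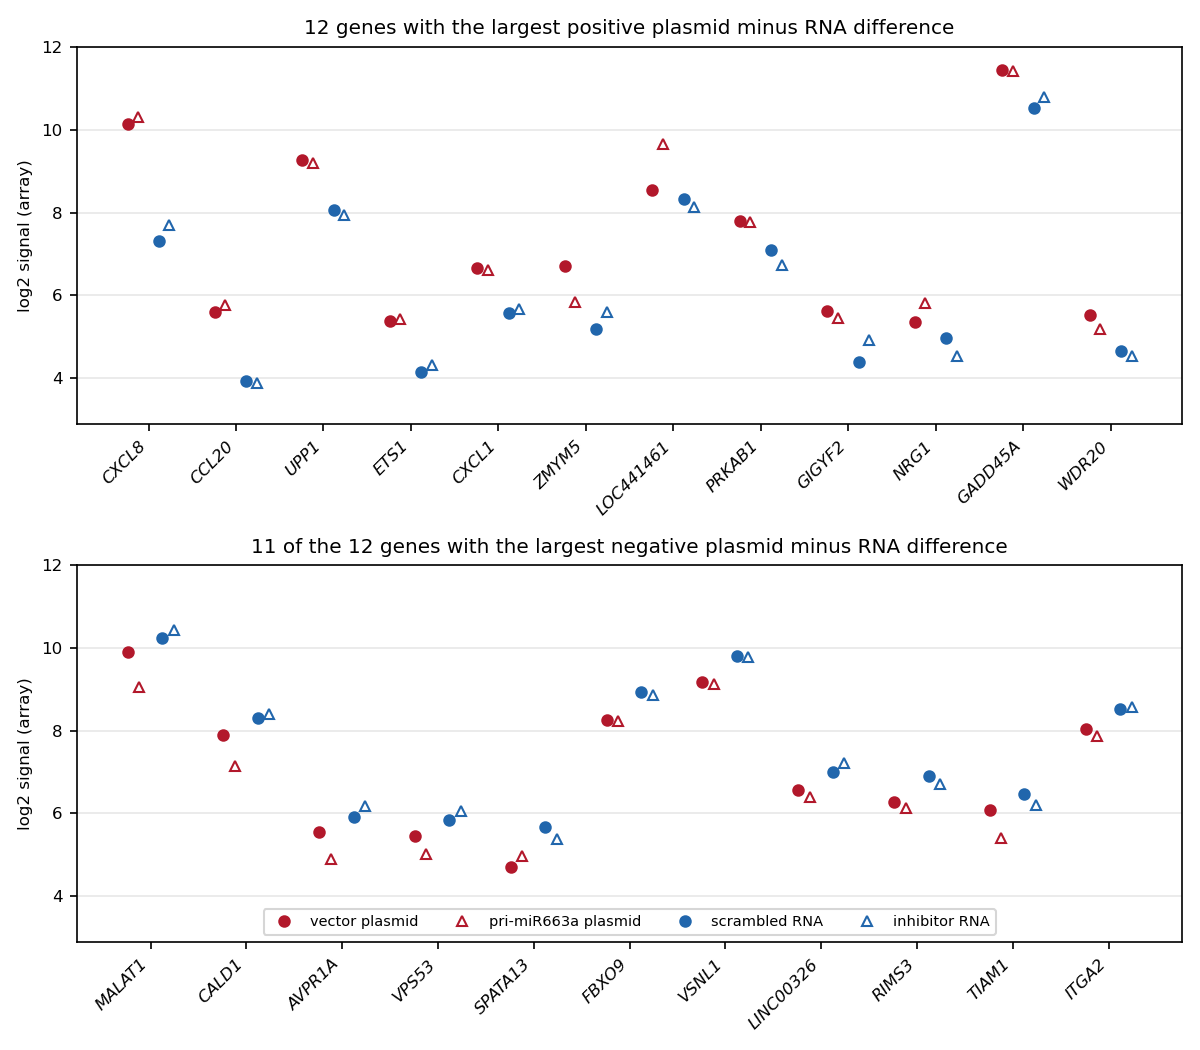
Log2 signal (y axis) on each of the 4 arrays for the 12 separated genes with the largest positive difference (upper panel) and 11 of the 12 with the largest negative difference (lower panel). Red marks are plasmid arrays and blue marks RNA arrays; circles are the vector and scrambled arrays, triangles pri-miR663a and inhibitor. CXCL8 has 10.13 and 10.31 with plasmid, against 7.31 and 7.70 with RNA, while MALAT1 has 9.90 and 9.04, against 10.24 and 10.44.

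Among the 12 genes lower with plasmid, MALAT1, a nuclear long noncoding RNA, had 9.90 and 9.04 log2 with vector and pri-miR663a, against 10.24 and 10.44 log2 with scrambled RNA and inhibitor. Its sides did not overlap, and the difference within the plasmid side, 0.86 log2, was as wide as the difference between the sides, -0.87 log2. CALD1, the actin-binding protein caldesmon, had 7.90 and 7.15 log2 with plasmid, against 8.30 and 8.40 log2 with RNA (-0.82 log2). VSNL1, a neuronal calcium sensor, had 9.17 and 9.12 log2 with plasmid, against 9.80 and 9.79 log2 with RNA. VSNL1 had the widest gap between the sides of the 12, 0.62 log2, with a difference of -0.65 log2 (limma, adjusted p = 0.214), and its other probe set had -0.59.

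FBXO9, an F-box protein, had 8.25 and 8.23 log2 with plasmid, against 8.94 and 8.86 log2 with RNA. Its 4 other probe sets in the value table lay below the 4.16 median. The authors' deposited table held further FBXO9 probe sets, of which 2 were separated and past 1.5-fold, with sizes of 0.62 and 0.59 log2. Another in the authors' deposited table was separated at 0.30 log2, and one more, at 0.34 log2, was not separated. The signs of these are unknown. ITGA2, a subunit of a collagen-binding integrin, had 8.05 and 7.87 log2 with plasmid, against 8.52 and 8.57 log2 with RNA (-0.59). AVPR1A, VPS53, SPATA13, LINC00326, RIMS3 and TIAM1 were also among the lower genes, at -0.82 to -0.59 log2. In 11 of the 12 lower genes the pri-miR663a array was below vector, with a median of -0.31 log2, against -0.05 over all genes counted. In the 51 higher genes, pri-miR663a was below vector in 27, with a median of -0.02 log2. FBXO9 and VSNL1, at -0.02 and -0.05 log2, lay near the median of all genes, and SPATA13 was the one gene above vector, at 0.25 log2. Choosing genes by a low plasmid mean favours low values on either plasmid array, and the part of the cargo in these genes was not tested.

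Further probe sets read other positions of the transcripts on the same arrays. Of the 51 higher genes 20 had other probe sets in the value table, and in 6 of these they all lay below the 4.16 median. In the remaining 14 the median of the brighter ones had the same sign in 14 and lay within 0.1 log2 of 0 in 2, NRG1 and LOC441461. Of the 12 lower genes 6 had other probe sets, which were dim in 4, and the 2 with brighter ones, CALD1 and VSNL1, had the same sign. TNFAIP3, chosen after its value was seen, had 1.004 log2 on its other probe set, against 0.66 log2 on its brightest.

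The gene lists and their members were chosen with earlier results of these data known. Their ranks and shares, here and below, are descriptions and were not tested. NF-kB and inflammation genes were the list with the highest median. Of 22 members counted, 15 were separated and higher with plasmid and 1 was lower, against 20% and 19.4% of all genes counted. At 1.5-fold or more 7 were higher and 0 lower, and the median was 0.36 log2, against -0.01 over all genes counted. Without CCL20, counted through its plasmid side, 14 of 21 were separated and higher, with a median of 0.31 log2. CXCL8 and CCL20 passed limma. Of the remaining members with a value past 1.5-fold, CXCL1 was described above, and RELB, a subunit of NF-kB itself, had 6.85 and 7.03 log2 with plasmid, against 6.29 and 6.14 log2 with RNA. PLAU, the urokinase plasminogen activator, had 8.03 and 7.99 log2 with plasmid, against 7.43 and 7.24 log2 with RNA. The other 2 were TNFAIP3, which encodes the NF-kB inhibitor A20, at 0.66 log2, and the subunit REL at 0.61 log2.

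Inhibitors of NF-kB and its other subunits in the list were also separated, at smaller size. NFKBIA, which encodes IkB-alpha, differed by 0.41 log2, NFKBIE by 0.46 log2, and the subunit RELA by 0.22 log2, all higher with plasmid and chosen after their values were seen. LIF was the one separated member on the other side, at -0.14 log2. IL1B, SOD2, ICAM1, LTB, PTGS2 and BCL3 had sides that overlapped, so several textbook NF-kB targets did not separate. Overlap was the more frequent state over all genes counted, where 20% were separated and higher and 19.4% lower. The median of the list was 0.39 log2 for vector minus scrambled RNA alone, 0.35 log2 after quantile normalization and 0.25 log2 with the offset of 64. Leukocyte markers had 0 of 5 counted members separated and higher.

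The counted interferon-stimulated genes and sensors of nucleic acids showed smaller differences. Of 22 interferon response genes counted, 11 were separated and higher with plasmid, or 50%, against 20% of all genes counted. Lower were 4, or 18.2%, near the 19.4% of all genes counted, and the median was 0.11 log2. IRF9, the DNA-binding subunit of the ISGF3 complex, had 7.71 and 8.15 log2 with plasmid, against 7.25 and 7.32 log2 with RNA. It was the list's single counted member past 1.5-fold (limma, adjusted p = 0.564). Of 51 probe sets of the list outside the value table, 2 were separated and past 1.5-fold in the authors' deposited table. These were IFIT2 at 1.33 log2 and IFIT3 at 0.66 log2 in size, with unknown sign. IRF1, an interferon regulatory factor that NF-kB also induces, had 7.15 and 6.96 log2 with plasmid, against 6.61 and 6.48 log2 with RNA. OASL was 0.32 log2 and IFI27 0.31 log2 higher with plasmid, and IFIT1, a classical interferon-stimulated gene chosen after its value was seen, had 7.11 and 7.13 log2 with plasmid, against 7.24 and 6.88 log2 with RNA. PSMB9, OAS1, UBE2L6 and IFITM2 were the 4 separated lower members, at -0.19 to -0.12 log2.

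All 13 counted genes of nucleic acid sensing lay within 0.39 log2 of 0. The list has 36 genes, of which 18 had a level and 18 are known by size alone. Of 58 probe sets of the list outside the value table, 0 were separated and past 1.5-fold in the authors' deposited table. POLR3F, a subunit of the RNA polymerase III that transcribes AT-rich DNA into a ligand of RIG-I, differed by 0.39 log2, and TRIM25, the ubiquitin ligase that acts on RIG-I, by 0.37 log2. TRAF6, ADAR, LRRFIP1 and TREX1 were also separated and higher, at 0.22, 0.17, 0.06 and 0.03 log2. SAMHD1, which hydrolyses dNTPs, had -0.27 log2, and RNASEH2A, a subunit of RNase H2, -0.12 log2, both separated and lower. IKBKE (0.19), EIF2AK2 (0.08), IRF3 (0.02), SKIC2 (-0.05) and RNASET2 (-0.12) overlapped between the sides. The list's median was 0.06 log2, and 0 members passed 1.5-fold.

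Immediate early and AP-1 genes had 13 of 30 counted members separated and higher and 2 lower, with a median of 0.14 log2. These shares, 43.3% and 6.67%, stand against 20% and 19.4% of all genes counted. ATF3, a stress-induced partner of JUN, had 11.08 and 11.06 log2 with plasmid, against 10.28 and 10.40 log2 with RNA (1.66-fold, limma, adjusted p = 0.214). JUN itself had 10.17 and 10.37 log2 with plasmid, against 9.52 and 9.58 log2 with RNA, and its 2 other probe sets had a median of 0.63 log2. MAFF, a small Maf protein, had 9.43 and 9.33 log2 with plasmid, against 8.68 and 8.83 log2 with RNA. Both sides were clear of each other in all 3. NR4A2 and DUSP4, the 2 separated lower members, had -0.42 and -0.38 log2, and were chosen after their values were seen.

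Over all genes counted, 20% were separated and higher and 19.4% lower. YAP targets had 6 of 10 counted members separated and higher and 1 lower (median 0.31 log2). AJUBA, a LIM protein of the Hippo pathway, had 7.95 and 7.49 log2 with plasmid, against 7.05 and 6.98 log2 with RNA. TGF-beta response genes had 7 of 12 higher and 1 lower (0.20 log2). THBS1, the matrix protein thrombospondin 1, was 1.53-fold higher and its 2 other probe sets above the 4.16 median had 0.62 and 0.84 log2. KLF10, a TGF-beta-inducible factor counted in 3 of the lists, was 0.53 log2 higher. In p53 targets 5 of 10 were higher and 1 lower (0.14 log2), with CDKN1A, the p21 cell cycle inhibitor, at 10.34 and 10.50 log2 with plasmid, against 10.15 and 10.06 log2 with RNA. For apoptosis regulators 7 of 17 were higher and 2 lower (0.05 log2), with XIAP, a caspase inhibitor, 0.65 log2 higher and BAK1, a pore-forming BCL2 relative, 0.57 log2 higher.

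Genes of the unfolded protein response had 9 of 15 counted members separated and higher and 0 lower, with a median of 0.12 log2 and none past 1.5-fold. The shares of all genes counted were 20% higher and 19.4% lower. PPP1R15A, which directs a phosphatase to eIF2-alpha, was highest at 0.53 log2, followed by the chaperone HYOU1 at 0.38 log2. Amino acid response genes split, with 6 of 20 higher and 2 lower and a median of -0.02 log2. STC2, a secreted glycoprotein, had 8.97 and 8.89 log2 with plasmid, against 8.32 and 8.14 log2 with RNA, while ATF5 had 7.17 and 7.15 log2 with plasmid, against 7.44 and 7.42 log2 with RNA. Autophagy genes had 7 of 18 higher and 2 lower (0.10 log2), led by the cargo receptor SQSTM1 at 0.44 log2. Among oxidative stress genes 7 of 22 were higher and 5 lower (0.04 log2), the lower share, 22.7%, being near that of all genes. The aldo-keto reductase AKR1B10 had 0.56 log2 and heme oxygenase HMOX1 0.52 log2.

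Heat shock genes had a median of 0.01 log2. Only DNAJB1 of 11 counted members was separated and higher, at 0.22 log2, and HSPE1 (-0.28) and HSPB1 (-0.14) were separated and lower, 18.2% of the list, against 19.4% of all genes counted. The stress-inducible HSP70 genes HSPA1A and HSPA1B share their probe sets and cannot be told apart, so they stood outside the gene counts. Their first probe set had 9.02 and 9.07 log2 with plasmid, against 9.83 and 9.62 log2 with RNA, and the second 9.41 and 9.64 log2 with plasmid, against 10.26 and 10.06 log2 with RNA. Both were separated and lower with plasmid, with differences of -0.68 and -0.63 log2.

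Oxidative phosphorylation, glycolysis and mitosis genes lay on the lower side by small amounts. Of 48 oxidative phosphorylation genes 22 were separated and lower with plasmid and 1 higher, with a median of -0.11 log2. All genes counted had 19.4% lower and 20% higher. NDUFB7 of complex I had -0.30 log2 and COX7B of complex IV -0.29 log2. Of 27 hypoxia and glycolysis genes 13 were lower and 1 higher (-0.12 log2): BNIP3, a mitophagy receptor, had 10.72 and 10.73 log2 with plasmid, against 11.18 and 10.99 log2 with RNA. The member on the other side was DDIT4, an inhibitor of mTORC1, with 11.27 and 11.40 log2 with plasmid, against 10.93 and 10.73 log2 with RNA.

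Mitosis genes had the lowest median among lists with 9 or more counted members, -0.15 log2, with 12 of 33 separated and lower (36.4%, against 19.4% of all genes counted) and 3 higher. TOP2A, topoisomerase II-alpha, had 10.10 and 9.68 log2 with plasmid, against 10.25 and 10.43 log2 with RNA. For vector minus scrambled RNA alone the mitosis median was -0.01 log2, while those of oxidative phosphorylation and of hypoxia and glycolysis were -0.10 and -0.18 log2. G1/S and replication genes had 9 of 38 lower and 5 higher (-0.05 log2). That share, 23.7%, is near the 19.4% of all genes counted, and without pri-miR663a the median was 0.01 log2. The other lists were endocytosis and lysosome genes with 12 of 33 lower and 6 higher (-0.04 log2), and cholesterol synthesis genes with 7 of 22 lower and 1 higher (-0.07 log2). In endocytosis and lysosome genes the higher share, 18.2%, was near the 20% of all genes counted. None of these 6 lists had a counted member past 1.5-fold and separated. Outside the value table, 1 probe set of hypoxia and glycolysis genes was, by size alone in the authors' deposited table. So were 2 of G1/S and replication genes and 2 of mitosis genes, all with unknown sign.

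Epithelial-mesenchymal transition genes held members on both ends. Of 21 counted, 6 were lower and 2 higher (-0.07 log2), or 28.6% and 9.52%, against 19.4% and 20% of all genes counted. ITGA2 was lowest and PLAU highest. ITGB4, a hemidesmosome integrin, had 7.91 and 7.65 log2 with plasmid, against 8.31 and 8.30 log2 with RNA, but its other probe set had 0.03. VIM, which encodes vimentin, differed by -0.43 log2. Ribosomal protein genes, which are bright and abundant, had 6 of 59 higher and 7 lower, all within 0.12 log2 of 0. Genes of the microRNA pathway had 2 of 13 higher and 3 lower (-0.02 log2), and Wnt targets 2 of 11 higher and 2 lower (-0.07 log2). Those shares were 15.4% and 23.1% for the microRNA pathway and 18.2% each way for Wnt targets, near those of all genes counted.

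**Figure D3:**
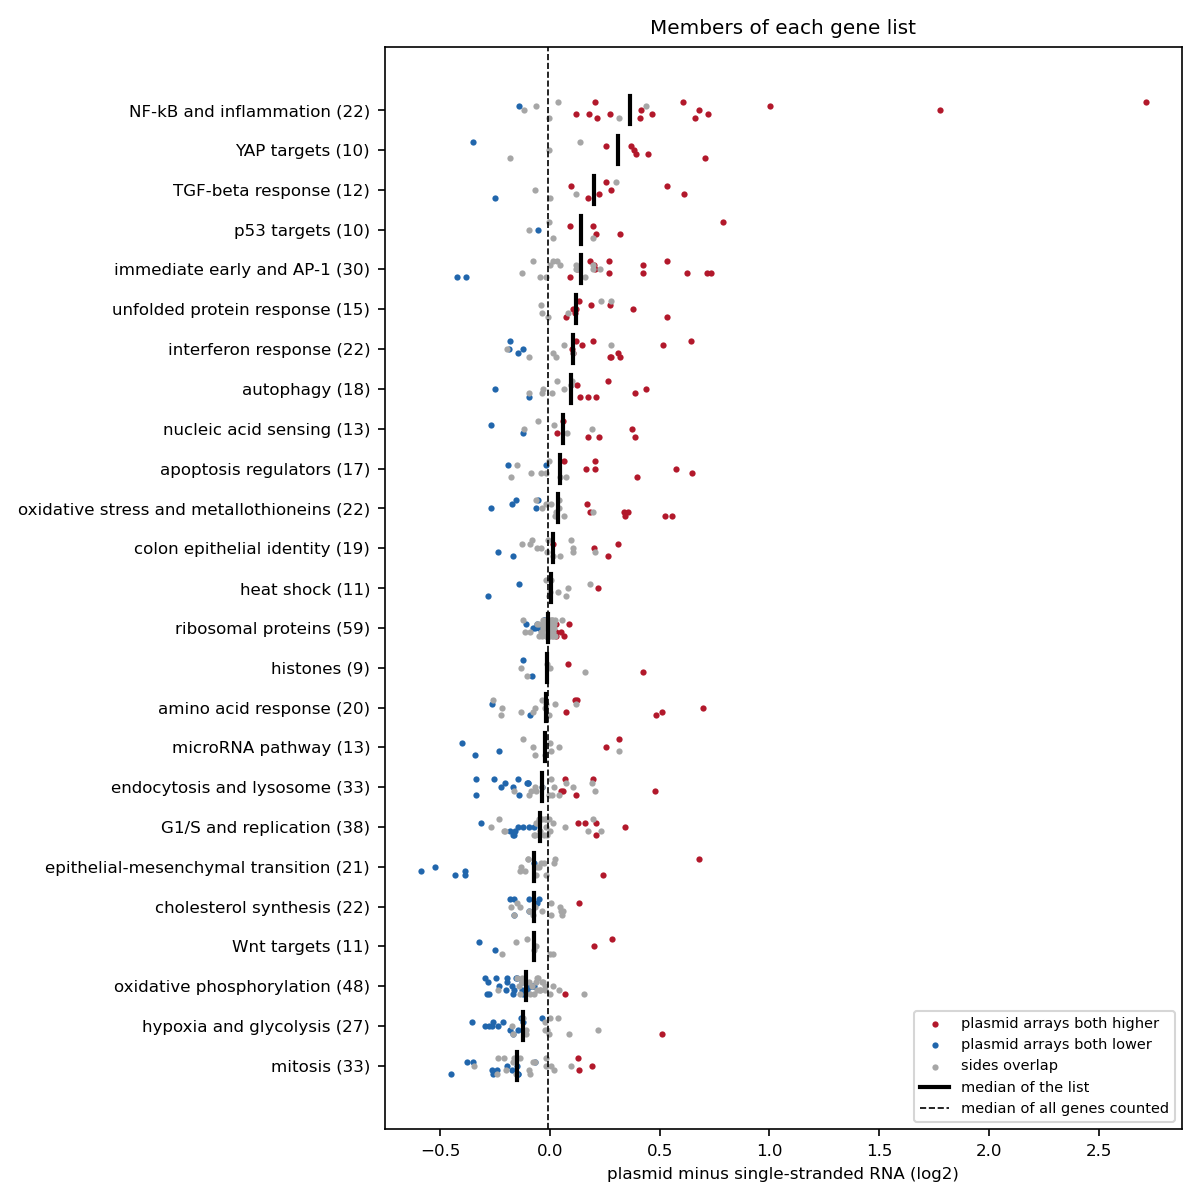
Plasmid minus single-stranded RNA difference in log2 (x axis) for every counted member of the 25 lists with at least 9 counted genes (y axis, number counted in brackets), red where both plasmid arrays are higher, blue where both are lower and grey where the sides overlap. Black bars are list medians, from 0.36 for NF-kB and inflammation to -0.15 for mitosis, and the dashed line is the median of all genes counted.

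The difference was also read in pairs that share no array. For vector minus scrambled RNA, 110 genes were at least 1.5-fold higher, and 73 of these lay above 0 for pri-miR663a minus inhibitor, where 47.9% of all genes counted did. Past 1.5-fold in the second pair were 22 of the 110, against 2.32% of all genes counted. Of 33 genes at least 1.5-fold lower in the first pair, 9 lay below 0 in the second, against 51.7% of all genes counted. Past 1.5-fold lower there were 2 of the 33, against 2.89% of all genes counted. Over the 5613 genes the pairs correlated at r = 0.096. This is a description across genes of 4 libraries, and genes are not independent replicates.

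With the RNA arrays paired the other way, which is how the titles would match control with control, 121 genes were at least 1.5-fold higher for vector minus inhibitor. Of these, 109 lay above 0 for pri-miR663a minus scrambled RNA, against 43.7% of all genes counted, and 26 were past 1.5-fold, against 1.09%. There were 24 genes at least 1.5-fold lower, of which 16 lay below 0 in the second pair, against 56.0%. Of the 24, 6 were past 1.5-fold lower there, against 1.1%. The pairs correlated at r = 0.412 over the same genes. Larger positive differences thus recurred in the second pair above the share of all genes under both pairings. Larger negative ones recurred above it by sign only under the second pairing. Past 1.5-fold they were above it under both, with just 2 genes under the first.

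**Figure D4:**
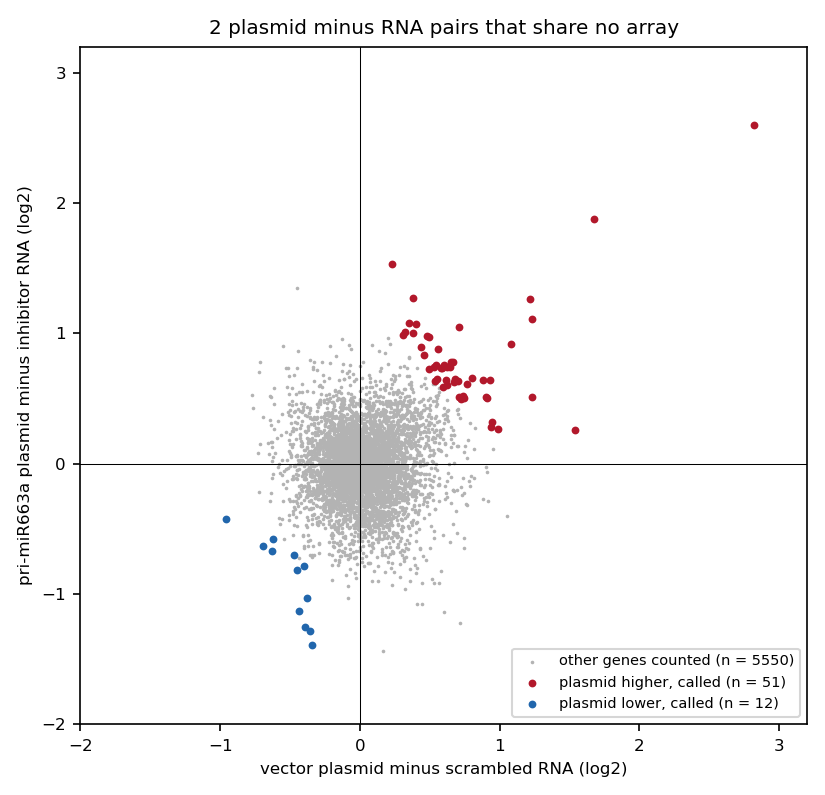
Each point is 1 of 5613 genes counted, by vector minus scrambled RNA (x axis, log2) and pri-miR663a minus inhibitor (y axis, log2). The 51 called higher genes (red) and 12 called lower genes (blue) fall in opposite corners because the call asks for separation, while the other genes spread with little relation (r = 0.096 over all genes counted).

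The authors' deposited ratio table reaches 42450 probe sets, 29746 of them outside the value table. From its ratios and its sum of squares the size of the plasmid minus RNA difference follows for each probe set, but not its sign. For 12704 probe sets in both tables this size differed from the measured one by at most 0.00124 log2, and separation was the same for all 12704 within a tolerance of 0.001. Across the authors' deposited table, 397 probe sets were separated and at least 1.5-fold apart, 0.935%, and 31 at least 2-fold, 0.073%, in either direction. Of these, 288 and 24 lay outside the value table. That table gives no level, so dim probe sets could not be set aside, and the genes named from it were chosen after their values were seen.

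The widest difference there belonged to 1 probe set of MAP2K5, a kinase upstream of ERK5. In the authors' deposited table it had a size of 4.96 log2, or 31.0-fold, and a ratio of 3.97 for pri-miR663a over vector. The other 5 MAP2K5 probe sets in the authors' deposited table had sizes of 0.03 to 0.12 log2, and none of them was past 1.5-fold. ARRDC4, an arrestin-related gene that MondoA activates, had 2.48 log2 in the authors' deposited table, and its relative ARRDC3 0.95 log2. EID3, an SMC5/6 complex subunit, had 1.61 log2 in the same deposited table by the authors.

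Relatives of the genes described above were among these probe sets. In the authors' deposited table the CXCL8-related chemokines CXCL3 and CXCL2 had sizes of 1.54 and 0.86 log2, and AJUBA 0.86 and 0.72 log2 on 2 further probe sets. DDIT3, the stress factor CHOP, had 1.34 log2, IFIT2, an interferon-stimulated gene, 1.33 log2 and SESN2, a stress-induced sestrin, 0.77 and 0.73 log2 in the authors' deposited table. The repressor SNAI2 had 1.39 log2, the laminin chain LAMB3 1.15 log2 and the keratin KRT80 1.12 log2 in the authors' deposited table. EIF5, a translation initiation factor, had 4 of 5 probe sets past 1.5-fold in the authors' deposited table, at 1.25, 1.20, 1.01 and 0.76 log2, with the fifth at 0.06.

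The list of noncoding RNAs held the nuclear MALAT1 and several host genes of small nucleolar RNAs, which carry snoRNAs in their introns. Of 59 probe sets of this list outside the value table, 12 were separated and past 1.5-fold in the authors' deposited table, where 0.935% of all probe sets were. MALAT1 supplied 3 of the 12, and 11 of its probe sets in the authors' deposited table had sizes of 0.18 to 0.94 log2. The widest of these was not separated. Its ratios were 0.29 for pri-miR663a over vector and 2.61 for inhibitor over scrambled RNA. The remaining 9 of the 12 belonged to the host genes SNHG12, SNHG15, SNHG5, EPB41L4A-AS1, GAS5 and ZFAS1. In the authors' deposited table SNHG12 had 1.07 and 0.79 log2, SNHG15 0.92, EPB41L4A-AS1 0.92 and SNHG5 0.78 log2. SNHG1, SNHG3 and SNHG7 stayed under 1.5-fold in the authors' deposited table, at 0.41, 0.37 and 0.29 log2. GAS5 had 0.69 and 0.67 log2 and ZFAS1 0.64 and 0.63 log2 on their widest probe sets in the authors' deposited table. GAS5 also had a probe set in the value table, where the sign is known, at 5.44 and 5.34 log2 with plasmid, against 5.00 and 5.15 log2 with RNA, which is 0.32 log2 higher with plasmid.

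**Figure D5:**
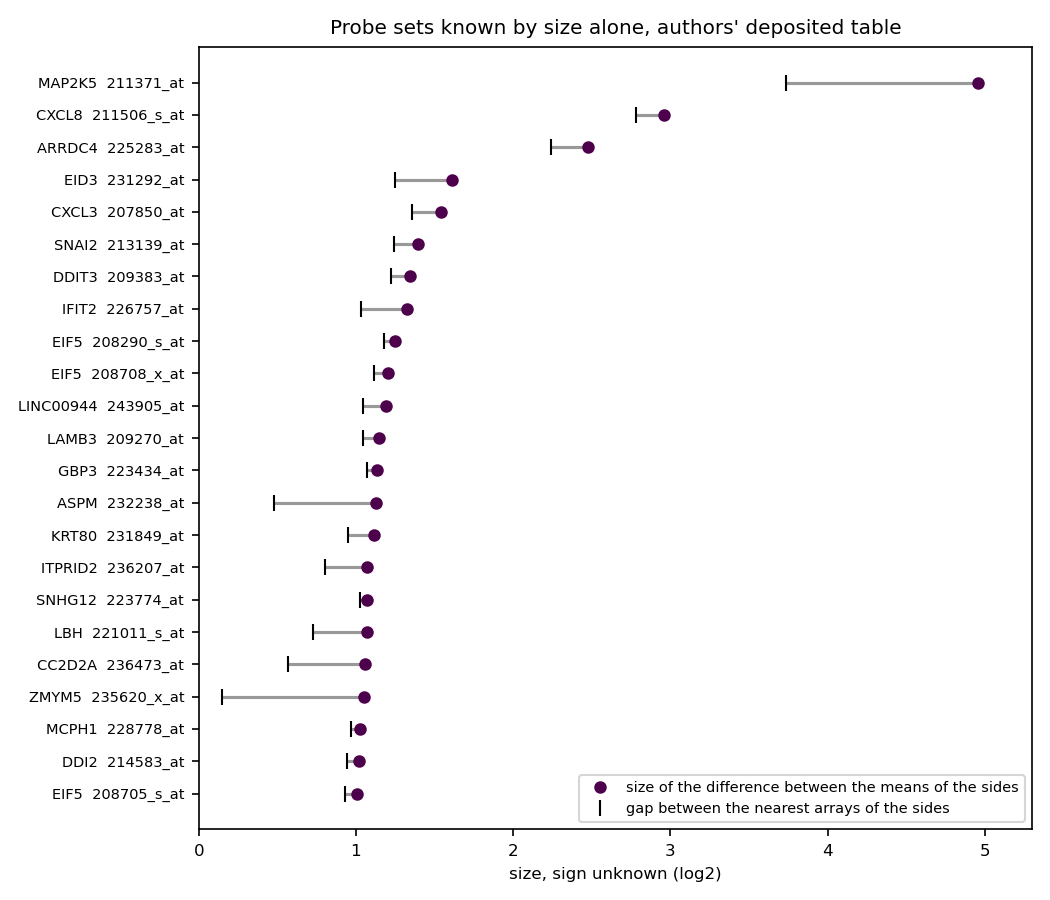
Size of the plasmid against RNA difference in log2 (x axis, purple points) for named probe sets (y axis) outside the value table that are separated and at least 2-fold apart in the authors' deposited table. Black ticks mark the gap between the nearest arrays of the sides. The sign is unknown, and the sizes run from 1.01 for EIF5 to 4.96 for MAP2K5.

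Promoters were matched for 40 of the 51 higher genes, 9 of the 12 lower genes and 4355 of the genes counted. The kappaB-like motif GGNNNTTCC was in 15 of the 40 windows (37.5%), against 22.9% of the counted genes' windows and 20.1% of all promoters. The AP-1 motif was in 5 (12.5%), against 4.94% and 7.76%, and the ATF/CRE-like motif in 6 (15%), against 6.91% and 7.97%. None of the 9 windows of the lower genes held any of the 3 motifs. These shares describe short windows with a few genes each, and were not tested.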

How the data were processed

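Total RNA of 4 HCT116 transfections was measured on Affymetrix expression arrays, 1 array each. The labels' protocols give Trizol extraction and biotin-labelled cRNA from 250 ng of RNA. The authors deposited log2 values of 16381 probe sets, and the submitters' processing notes name MAS5. The background correction and the scaling between arrays are unstated in the sources used here. The authors also deposited linear ratios for 42450 probe sets and a score column, which was found to be each probe set's sum of squares about its mean log2. The size of the plasmid minus RNA difference is the square root of that sum less the square of each log2 ratio over 2.

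Probe sets were named through RefSeq accessions, then symbols; those of several genes were left out of gene counts, and 3677 probe sets absent from the ratio table stayed unnamed. The value table ends part way through the probe set order, so many genes are known by size alone. The brightest probe set stood for a gene. Genes with a mean above the median of all values were counted. The 2 arrays of each side served as its replicates, although they carried different cargo and nothing says that they came from separate cultures repeated; p-values measure the spread between these arrays. The main test was limma 3.58.1 (R 4.3.3), lmFit and eBayes with an intensity trend and 2 residual degrees of freedom, adjusted over all probe sets and tested on simulated data. Other calculations used Python 3.11.15, numpy 2.4.6 and pandas 2.3.3, and figures matplotlib 3.10.9. The number of arrays limits the precision.

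Named genes are the 12 highest and 12 lowest separated genes, the 4 widest differences of each list and all counted members of nucleic acid sensing; others are said to be chosen after their values were seen. A few genes are not reported here. The members and the 33 lists were chosen with earlier results of these data known. Alternatives were centring, quantile normalization, other filters, an offset of 64, the mean of all probe sets, a cargo term, no trend, leaving out each array, and single pairs of arrays. Promoters are those of RefSeq, GRCh38.p14.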

Additional observations from a re-analysis of the deposited data

How the results depend on the processing

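The count of 63 separated genes at 1.5-fold (51 higher, 12 lower with plasmid) held within 1.5 times after centring, after quantile normalization, without the filter on dim genes and without asking for separation. It was 29 (23 higher, 6 lower) above the 75th percentile of signal, 12 (9 and 3) with the offset of 64, 143 (110 and 33) for vector minus scrambled RNA and 145 (121 and 24) for vector minus inhibitor, the last chosen after seeing the data. With the mean of all probe sets 7 genes were lower. Leaving out 1 array gave 67 to 144 genes, 51 to 99 higher and 10 to 78 lower. Without vector the split was 66 higher and 78 lower, without pri-miR663a 92 and 10, without scrambled RNA 99 and 36, and without inhibitor 51 and 16. At 2-fold the 5 genes, all higher, were 2 above the 75th percentile, 2 with the offset and 8 for vector minus scrambled RNA. Leaving out 1 array gave 6 to 12, with 6 to 7 higher and 0 to 5 lower, the 5 without vector. Fewer arrays make separation easier to meet, by construction.

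The 3 limma calls were 3 after centring and with brighter probe sets only, 4 after quantile normalization (ATF3 added), 1 with the offset (CXCL8), and 0 with the cargo term, without the trend and without each array in turn; the cause was not tested beyond the fewer residual degrees of freedom. Of 31 lists with at least 2 counted members, 15 had a median above 0, and 13 to 20 under the alternatives. Centring moved the median of no list across 0, and quantile normalization that of 3. The medians of NF-kB, YAP, TGF-beta, immediate early, p53, unfolded protein, autophagy and interferon genes, and on the other side of oxidative phosphorylation, hypoxia and mitosis genes, kept their sign under all alternatives. So did those of nucleic acid sensing, oxidative stress, cholesterol synthesis, endocytosis and lysosome, and epithelial-mesenchymal transition genes. A kept sign was therefore not particular to the lists with wider medians. Centring shifted all differences by 0.00178 log2.

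No paired analysis was possible because the replicate numbers are in accession order and pair no arrays; the fit with a cargo term is the nearest.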
